A study of Mus musculus with 2 samples.

Results

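The RNA described here is that of 7 protein-coding genes that lie around the *Kcnq1* imprinted domain of distal mouse chromosome 7, within chr7:150238644-150942890 of mm9. They were taken as a list: *Cd81*, *Tssc4*, *Cdkn1c*, *Slc22a18*, *Phlda2*, *Nap1l4* and *Osbpl5*. All 7 had at least a covered exon base, and 6 of the 7 had at least 10 read pairs over their exons in both libraries together, the minimum used for the 646 measured protein-coding genes of the series; *Slc22a18* did not reach it. Mouse embryo fibroblasts (MEFs) were derived at 13.5 dpc from a female JXO embryo (JF1 mother and TgOG2 father) and from a female OXJ embryo (TgOG2 mother and JF1 father), and 1 strand-specific library was made from each cross. JF1 is an inbred strain of the *molossinus* subspecies, and TgOG2 is a line of *domesticus* origin that is homozygous for an EGFP reporter transgene; both crosses therefore carry the transgene on 1 parental set, and no gene was deleted and no agent was given in either. The cells were early-passage cultures from the carcass of 1 embryo per cross, without head and internal organs, so each library can hold several cell types, and fewer cells of a type and less RNA per cell cannot be told apart. With 1 library per cross the differences between JXO and OXJ have no replicate check, and cross, embryo, culture and library cannot be told apart. Bases that differ between the strains are not marked in the signal, so no value below is allele-specific.

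Imprinted genes are transcribed mainly from the allele of a given parent. In the *Kcnq1* domain the long non-coding RNA *Kcnq1ot1* starts in an intron of the potassium channel gene *Kcnq1* and is made from the paternal allele, where it is known to keep neighbouring genes silent; in mouse, *Cdkn1c*, *Phlda2* and *Slc22a18* are known as maternally expressed genes of the embryo, whereas the maternal bias of *Tssc4*, *Cd81*, *Nap1l4* and *Osbpl5* has been described chiefly in the placenta. The products have unrelated tasks. *Cdkn1c* encodes an inhibitor of cyclin-dependent kinases that restrains growth, *Phlda2* a pleckstrin homology protein that restrains placental growth, *Slc22a18* a membrane transporter, *Cd81* a tetraspanin of the cell surface, *Nap1l4* a histone chaperone, *Osbpl5* a lipid transfer protein of the oxysterol-binding family, and *Tssc4* a protein that in human cells takes part in the assembly of spliceosomal particles.

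A level is the depth averaged over the bases of a feature, with a library of 50000000 aligned reads as the unit, so that a single read adds 0.652 in JXO and 0.579 in OXJ. The tracks covered 618 stretches with 5837225 reads in JXO and 5785447 in OXJ, or 7.61% and 6.70% of the aligned reads. For levels 95% intervals were computed from read pairs (exact Poisson), for shares by Clopper-Pearson and for ratios from the conditional binomial, and reads without molecular identifiers make all of them cover counting error only. Of 11 fibroblast markers, 3 lay inside the stretches, and the collagen gene *Col1a2* had a level of 583 in JXO and 388 in OXJ, *Dcn* 22.9 and 25.9, and *Lum* 18.9 and 15.5. Of 5 neural markers, 2 lay inside, with *Nes* at 340 in JXO and 155 in OXJ and *Sox2* at 1.27 and 1.22. Of 5 trophoblast markers only *Hand1* was inside, at 0.261 in JXO and 0.116 in OXJ, and none of the listed blood, endothelial, epithelial or skeletal muscle markers was, so other cell types could be checked only in part. The part of such cells in the values below was not tested.

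**Figure D1:**
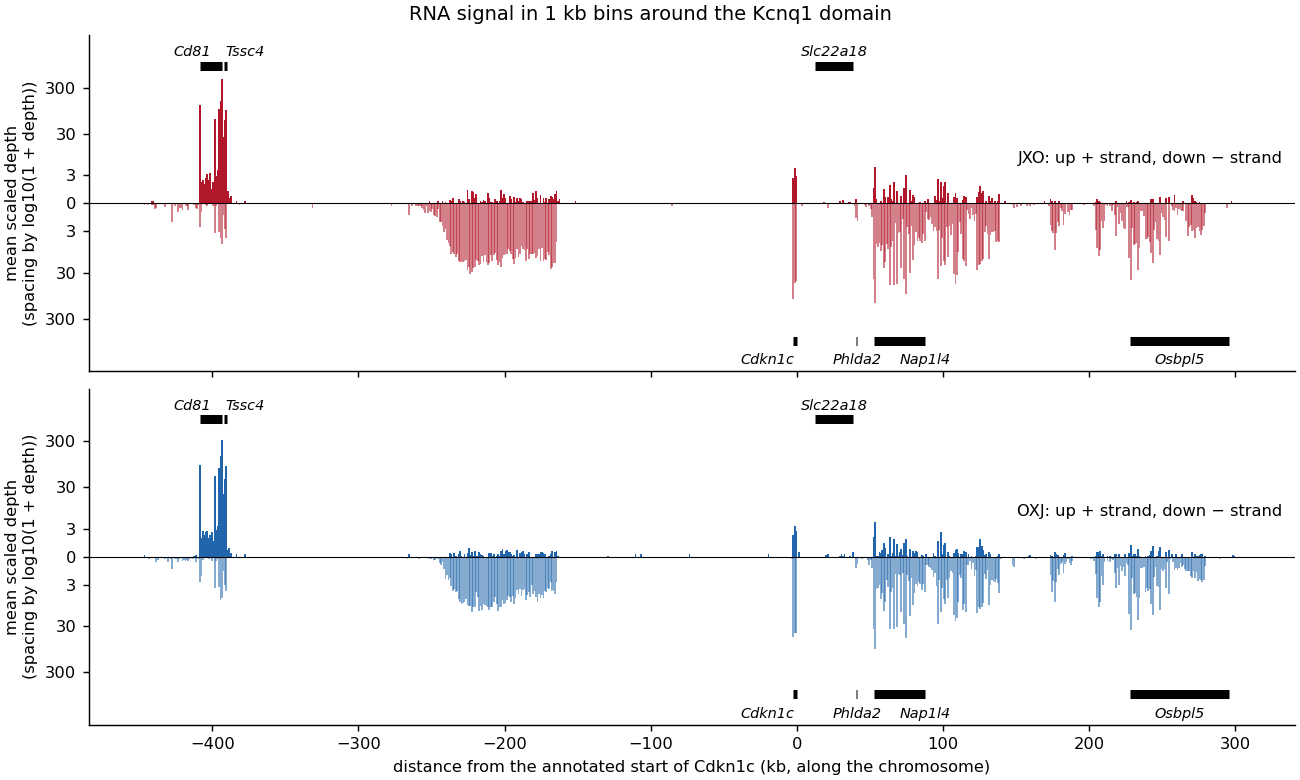
Mean scaled depth in 1 kb bins (spaced by log10 of 1 plus depth) against the distance from the annotated start of *Cdkn1c* in kb, for JXO (upper panel) and OXJ (lower panel), with (+) strand signal upward and (−) strand signal downward; black bars mark the 7 genes on the side of their strand. *Cd81* and *Tssc4* form an isolated (+) strand block, *Cdkn1c* an isolated (−) strand peak, and *Slc22a18* leaves hardly any signal; the broad (−) strand block to the left of *Cdkn1c* lies within *Kcnq1*.

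The 7 genes fell into 3 ranges of level. *Cd81* and *Nap1l4* were at 157 or more in either library, *Cdkn1c*, *Tssc4* and *Osbpl5* between 31.3 and 105, and *Phlda2* and *Slc22a18* at 2.69 or less. These ranges hold for mean depth: with means of log2 values *Cd81* was at 100.2 in JXO and 92.7 in OXJ, below *Nap1l4* at 187 and 129, and *Osbpl5* was at 19.03 and 17.2. The exons of *Cd81* had 400 in JXO (391 to 409) and 295 in OXJ (288 to 303), and those of *Nap1l4* 240 in JXO (233 to 248) and 157 in OXJ (152 to 163). *Cdkn1c* had 105 in JXO (99.6 to 110) and 68.8 in OXJ (64.9 to 72.9). The exons of *Tssc4* were at 85.4 in JXO (80.5 to 90.4) and 71.3 in OXJ (67.1 to 75.7). Thus *Cdkn1c* ranked above *Tssc4* in JXO, whereas in OXJ their intervals overlapped, with *Tssc4* nominally ahead. *Osbpl5* had 34.8 in JXO (32.9 to 36.7) and 31.3 in OXJ (29.7 to 33.1).

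The weakly transcribed genes rest on few reads. *Phlda2* had 2.69 in JXO (1.53 to 4.39), from 31.2 reads, and 0.871 in OXJ (0.309 to 1.93), from 11.4 reads. *Slc22a18* had 0.304 in JXO (0.0827 to 0.777), from 8 reads, and 0.336 in OXJ (0.109 to 0.785), from 9.98 reads. In JXO their intervals did not overlap, but in OXJ they did, so at this depth the order of these genes was settled by counting in JXO only. Fractions of reads arise because a read that spans an exon border counts by its bases.

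The median level of the 7 genes was 85.4 in JXO and 68.8 in OXJ, whereas the median of all 646 measured genes was 16.9 and 11.4. By rank among the measured genes, *Cd81* stood at percentile 95.2 in JXO and 95.8 in OXJ, *Nap1l4* at 92.4 and 93.0, *Cdkn1c* at 83.6 and 83.3, *Tssc4* at 80.2 and 83.7, and *Osbpl5* at 65.2 and 70.1. *Phlda2* stood at 21.2 in JXO and 11.5 in OXJ. *Slc22a18* would stand at 3.87 and 4.64. Within the domain, the exons of *Cd81* had 1317 times the level of *Slc22a18* in JXO and 878 times in OXJ, and *Cdkn1c* had 39.0 and 79.0 times the level of *Phlda2*.

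**Figure D2:**
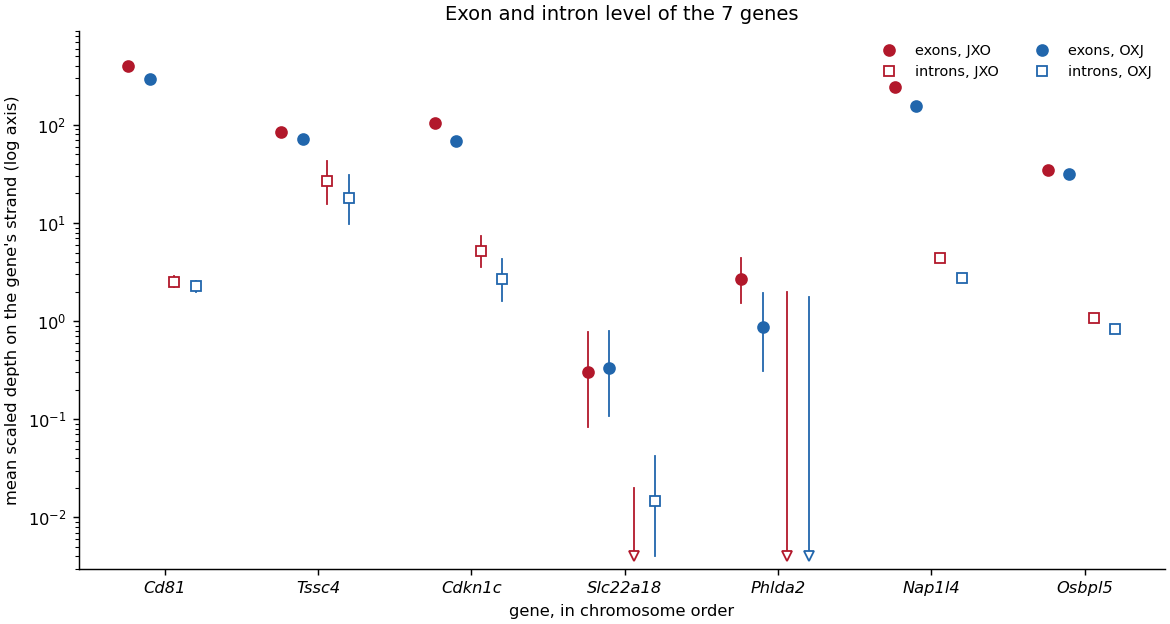
Mean scaled depth on the gene's own strand (log axis) over exons (filled circles) and introns (open squares) of the 7 genes in chromosome order, JXO in red and OXJ in blue, with 95% counting intervals as bars; open triangles at the lower edge mark introns without a read. Exon levels run from 400 at *Cd81* in JXO to 0.304 at *Slc22a18* in JXO, and every intron level is below the exon level of its gene.

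The exon signal of all 7 genes was higher on the own strand, in JXO as well as in OXJ, as it was for 97.4% of the measured genes in either library. Of the *Cd81* exon reads, 98.0% (97.6 to 98.3) lay on its strand in JXO and 96.7% (96.2 to 97.1) in OXJ, and of those of *Osbpl5* 98.8% (98.1 to 99.3) and 97.4% (96.4 to 98.1). *Nap1l4* had 96.9% and 96.1%. *Tssc4* had 95.8% in JXO and 94.3% in OXJ, and *Cdkn1c* 95.4% and 94.3%, which are at percentiles 28.8 and 22.3, and 24.8 and 22.1, of the measured genes. *Slc22a18* had no other-strand exon read in either library, and its intervals allow an other-strand level of up to 0.280 in JXO and 0.249 in OXJ, close to the own-strand level. *Phlda2* had 4 other-strand reads in JXO (own-strand share 88.6%, 64.6 to 98.6) and none in OXJ.

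For *Cd81*, *Nap1l4*, *Cdkn1c* and *Osbpl5* the other-strand level was higher over exons than over introns. For *Cd81* it was 8.33 in JXO and 10.2 in OXJ over exons, against 0.115 and 0.235 over introns. For *Nap1l4* it was 7.72 and 6.44 over exons, against 0.0601 and 0.0931 over introns. For *Cdkn1c* it was 5.10 and 4.13, against 0.249 and 0.180, and for *Osbpl5* 0.424 and 0.853, against 0.0278 and 0.0253. *Tssc4* had 3.74 in JXO and 4.27 in OXJ over exons, against 0.107 and 1.67 over its short intron. *Slc22a18* had the opposite order in JXO, with 4 other-strand reads in introns (0.0109) and none in exons. Over the 16 exon blocks of *Nap1l4* the other-strand level followed the own-strand level, with a Spearman's rho of 0.824 (JXO) and 0.682 (OXJ); over the 23 blocks of *Osbpl5* rho was 0.0168 and 0.413, and over the 8 blocks of *Cd81* 0.762 and 0.333. These correlations describe exon blocks of 1 gene, which share a library and a transcript. *Tssc4* lies within the span of *Trpm5*, a cation channel gene of the (−) strand whose own exons had only 0.132 in JXO and 0.0456 in OXJ.

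Introns were lower than exons in all 7 genes, as in most measured genes. Among the 590 measured genes with introns, the middle 95% had an intron level of 0 to 47.3% of the exon level in JXO. In OXJ that range was 0.0114% to 50.7%. The count thus does not set these 7 genes apart. *Cd81* introns had 2.53 in JXO (2.23 to 2.86) and 2.27 in OXJ, which is 0.633% and 0.769% of its exon level. The intron level was 4.39 and 2.75 for *Nap1l4* (1.83% and 1.75%), 1.08 and 0.830 for *Osbpl5* (3.10% and 2.65%), and 5.21 and 2.72 for *Cdkn1c* (4.97% and 3.95%). The *Cdkn1c* value moved with the bases and the measure used: it was 2.96 in JXO and 0 in OXJ at least 200 bases from an exon, and 2.61 and 0 with median depth. With median depth the introns of *Osbpl5* were at 0 in JXO and 0.579 in OXJ. The median over 590 measured genes with introns was 2.87% in JXO and 3.002% in OXJ, so *Cd81*, at percentile 13.2 in both libraries, had little intron signal for its exon level. *Phlda2* had no read in its 240-base intron in either library. In JXO the intron interval reaches 2.004, below the exon level of 2.69, although the interval of the exon level extends below that limit. In OXJ the intron interval reaches 1.78, above the exon level of 0.871. An intron level near that of the exons was therefore not detectable at this depth in OXJ. *Slc22a18* had no intron read in JXO and 6.02 in OXJ over 23896 bases.

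*Cdkn1c*, on the (−) strand from 150644255 to 150646955, has 4 exons, of which exon 2 carries 913 of its coding bases and exon 4 none. Exon 1 had 57.3 in JXO and 56.2 in OXJ, and exon 2 had 66.8 and 65.2. Exon 3 had 121 in JXO (101 to 144) and 74.1 in OXJ (59.5 to 91.1). Exon 4, with the annotated 3′ end, had 167 in JXO and 76.3 in OXJ. At the deposited scaling the libraries were thus nearly level over the 5′ part of the gene and apart over its 3′ part: the log2 ratio of JXO over OXJ was 0.029 (-0.41 to 0.46) in exon 1, 0.036 (-0.15 to 0.22) in exon 2, 0.71 (0.31 to 1.12) in exon 3 and 1.13 (0.97 to 1.30) in exon 4. The median measured gene had 0.48 at this scaling. That value lies above the intervals of exons 1 and 2, inside that of exon 3 and below that of exon 4. Relative to the median gene, exons 1 and 2 were therefore lower in JXO and exon 4 higher. Within JXO exon 4 had 2.504 times the level of exon 2, and within OXJ 1.17 times.

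This unevenness was compared with that of other genes, a comparison chosen after the exon values of *Cdkn1c* were seen. The ratio of the last exon exceeded that of the other exons together, 0.14 (-0.014 to 0.29), by 0.99 on the log2 scale. Among 415 genes with at least 20 read pairs in both parts and both libraries, the difference of *Cdkn1c* was at percentile 98.8. The middle 95% of genes ran from -0.51 to 0.85, around a median of 0.12. The difference was 0.26 for *Cd81*, -0.14 for *Osbpl5*, -0.23 for *Nap1l4* and -0.29 for *Tssc4*, all inside that range. The overall ratio of *Cdkn1c*, given below, is therefore a mean of unlike parts.

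**Figure D3:**
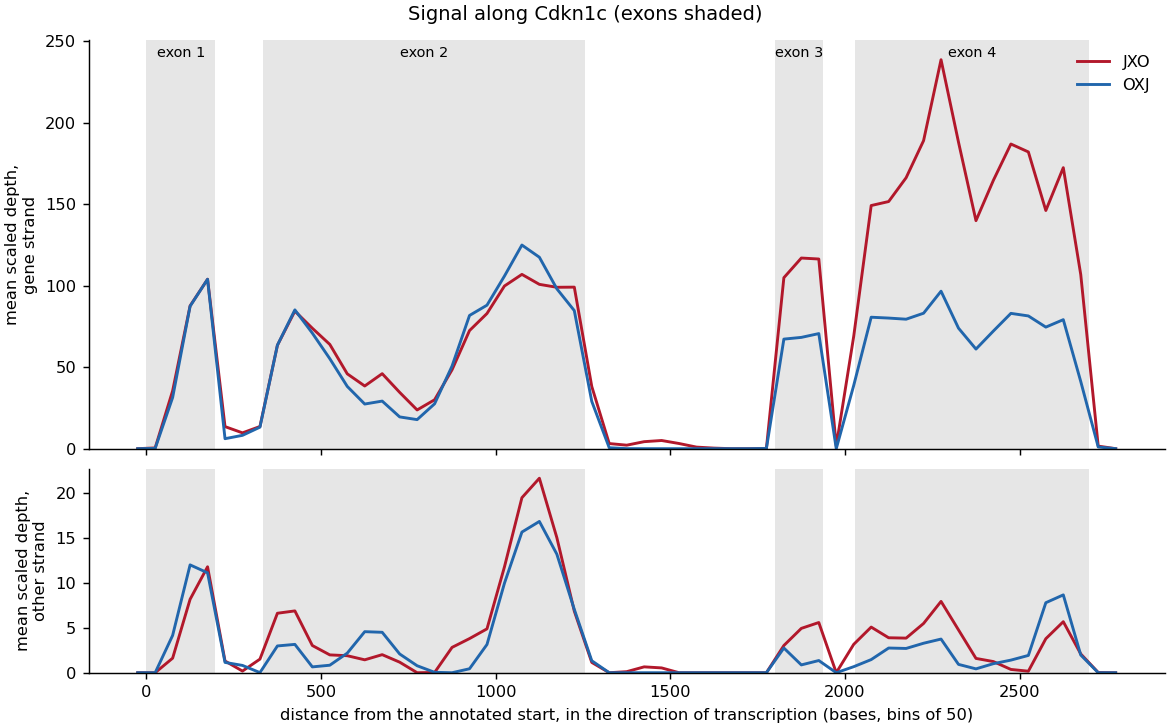
Mean scaled depth in 50-base bins along *Cdkn1c* against the distance from its annotated start in bases, in the direction of transcription, on the gene's strand (upper panel) and on the other strand (lower panel), JXO in red and OXJ in blue, with exons shaded. At the deposited scaling the lines lie together over exons 1 and 2 and apart over exon 4 (167 in JXO, 76.3 in OXJ), and the other-strand signal is highest near the 3′ end of exon 2.

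Depth was also uneven inside exon 2, in the same way in both libraries. Of its 18 bins of 50 bases, the lowest one lay at 150646172 to 150646221, with 26.3 in JXO and 17.6 in OXJ, whereas the highest bins reached 106 and 124. The lowest bin is 78% G and C, against 69.5% for the whole exon of 922 bases, and is shown in capitals with 25 bases on either side (5′ to 3′ along the RNA, chr7:150646147-150646246, (−) strand of mm9).
Cdkn1c low bin: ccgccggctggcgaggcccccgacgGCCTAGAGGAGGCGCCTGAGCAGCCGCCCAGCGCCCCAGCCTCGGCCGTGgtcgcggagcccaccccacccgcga

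The bin with the highest share of G and C, 82%, had 44.8 in JXO and 29.2 in OXJ. A relation between base composition and depth over the bins was not tested. The bin with the highest other-strand level, at 150645822 to 150645871, had 21.4 in JXO and 17.8 in OXJ on the other strand, beside 104 and 124 on the own strand. It lies in a coding repeat, shown here with 50 bases on either side (chr7:150645772-150645921, (−) strand of mm9), with capitals marking each exact copy of GAGCCGGTCGAGGAG, the longest string of bases present at least 4 times in the exon.
Cdkn1c repeat: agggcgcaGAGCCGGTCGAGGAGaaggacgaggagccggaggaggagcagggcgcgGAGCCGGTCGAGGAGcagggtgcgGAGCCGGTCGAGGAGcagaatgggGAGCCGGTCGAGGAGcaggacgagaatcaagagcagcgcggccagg

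This unit occurs 4 times in the mm9 genome, counting both strands, and all 4 copies are in exon 2 of *Cdkn1c*; of the 646 measured genes 1 (0.155%) holds it in an exon. The signal of *Cdkn1c* had sharp ends. No read lay within 1 kb before the annotated start on either strand, and depth reached 5 reads 60 bases inside it in both libraries. Past the annotated end only 0.830 reads in JXO and 0.940 in OXJ lay in the first 1 kb.

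The measured genes whose exon and intron levels in both libraries were most like those of *Cdkn1c*, by Euclidean distance over these 4 log2 values among 590 genes, were *Cinp* (distance 0.341), *Slc48a1* (0.436) and *Dek* (0.532). Their exon levels were 98.1 in JXO and 58.1 in OXJ for *Cinp*, 91.2 and 77.8 for *Slc48a1*, and 142 and 79.4 for *Dek*. Of 17 listed cyclin-dependent kinase inhibitors, G1 cyclins and kinases, only *Ccnd1*, the gene of cyclin D1, lay inside the deposited stretches, at 178 in JXO and 136 in OXJ.

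*Phlda2*, on (−) from 150687450 to 150688446, has 2 exons and lies between *Slc22a18* and *Nap1l4*. Its coding exon 1 had 23.1 reads in JXO (level 3.10) and 4.29 reads in OXJ (level 0.512), with a log2 ratio of 2.60 (0.47 to 5.66). Its exon 2 had 8.14 reads in JXO and 7.10 in OXJ, with a ratio of 0.37 (-2.09 to 2.92). As these intervals overlap, a difference between the exons was not detectable at this depth. The 5′ stretch of the gene is shown because depth in JXO reached 5 reads there, 31 bases inside the annotated start. It is taken from the RefSeq promoter table (GRCm38.p6) and matched exactly and once in the window of mm9 around the domain (chr7:150688380-150688489, (−) strand); capitals mark the 50 bases from the RefSeq start, 17 bases inside the GENCODE start, and the letters TATAAA.
Phlda2 start: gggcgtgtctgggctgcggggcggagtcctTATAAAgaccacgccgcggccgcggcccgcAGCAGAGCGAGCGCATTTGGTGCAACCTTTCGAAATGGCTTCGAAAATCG

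The letters TATAAA begin 30 bases before the RefSeq start. They occur on either strand in 13.6% of 32851 RefSeq promoters of 300 bases, and among the promoters of the genes studied here also in that of *Cd81*, where they lie 6 bases after the start. A match is not evidence of use. The 300 bases from the start of *Phlda2* held 17.3 reads in JXO and 2.22 in OXJ, and the 250 bases before it 0.940 and 2.78. Past its annotated end, 7 reads in JXO and 5 in OXJ lay within 1 kb on its strand.

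*Slc22a18*, on (+) from 150659626 to 150685239, had reads in part of its exons. Of its 12 exon blocks, 7 had a read in JXO and 6 in OXJ. Exons 1 and 2 had none in either library. The first exon with a read was the third in JXO and the sixth in OXJ, and the most reads in an exon were 2.66 in JXO, in exon 9, and 4.30 in OXJ, in exon 12. The 300 bases from the RefSeq start held no read in either library, with upper limits of 1.603 in JXO and 1.42 in OXJ that lie above the exon level of the gene, so use of this start was not detectable at this depth.

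*Osbpl5*, on (−) from 150874667 to 150942890, has 3 RefSeq starts, and its signal began at the most downstream of these in both libraries. GENCODE lists 9 transcripts of the gene, and exon blocks 1, 2 and 3 belong to 1, 3 and 2 of them. Some transcripts therefore begin further downstream, and use of their starts was not tested. The distal first exon (150942841 to 150942890) and the middle one (150927578 to 150927868) had no read in either library, and the proximal one (150926175 to 150926246) had 8.20 in JXO (2.47 to 19.9) and 7.43 in OXJ (2.27 to 17.9). The 16644 bases between the distal and the proximal start held 4 reads in JXO and 2 in OXJ, whereas there were 599 and 484 reads in the 24447 bases of the intron that follows the proximal exon, at 1.597 and 1.15. Depth reached 5 reads 19 bases inside the annotated proximal start in both libraries. The 3 starts are shown because only the last of them had reads; each line gives 60 bases before the RefSeq start in lower case and 50 bases from it in capitals, from RefSeq (GRCm38.p6), matched exactly to mm9 on the (−) strand at chr7:150942864-150942973, chr7:150927819-150927928 and chr7:150926216-150926325.
Osbpl5 distal start: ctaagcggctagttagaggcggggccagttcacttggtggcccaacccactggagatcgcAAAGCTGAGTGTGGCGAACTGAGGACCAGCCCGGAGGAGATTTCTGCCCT
Osbpl5 middle start: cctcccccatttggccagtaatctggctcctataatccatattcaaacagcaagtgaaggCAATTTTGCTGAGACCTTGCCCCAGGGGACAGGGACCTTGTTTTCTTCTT
Osbpl5 proximal start: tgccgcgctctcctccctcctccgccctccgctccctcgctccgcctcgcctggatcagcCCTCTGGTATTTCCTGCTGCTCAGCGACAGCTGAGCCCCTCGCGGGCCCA

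The starts differ in base composition as well. In the 300 bases of the RefSeq promoter the distal start has 16 CpG and 62.0% G and C, the middle start 1 CpG and 52.0%, and the proximal start 21 CpG and 68.0%, beside a median of 7 CpG over all 32851 promoters; none of the 3 holds TATAAA. Of the 7 genes, 5 were found in that table, and the others were *Cdkn1c* and *Nap1l4*. Of the 23 exon blocks of *Osbpl5*, 21 had reads in both libraries, with a median block level of 37.8 in JXO and 31.5 in OXJ. Among the blocks with reads the lowest was exon 5, with 7.50 in JXO and 6.71 in OXJ, and the highest was exon 11, with 65.1 and 57.8. Exon 5 spans 513 bases, of which 83 are coding. Without the empty first exons the exon level of the gene was 37.4 in JXO and 33.7 in OXJ, a value chosen after the exons were seen. Of 11 other listed oxysterol-binding genes, *Osbpl1a* had 12.7 in JXO and 8.76 in OXJ and *Osbpl7* 1.61 and 1.33.

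**Figure D4:**
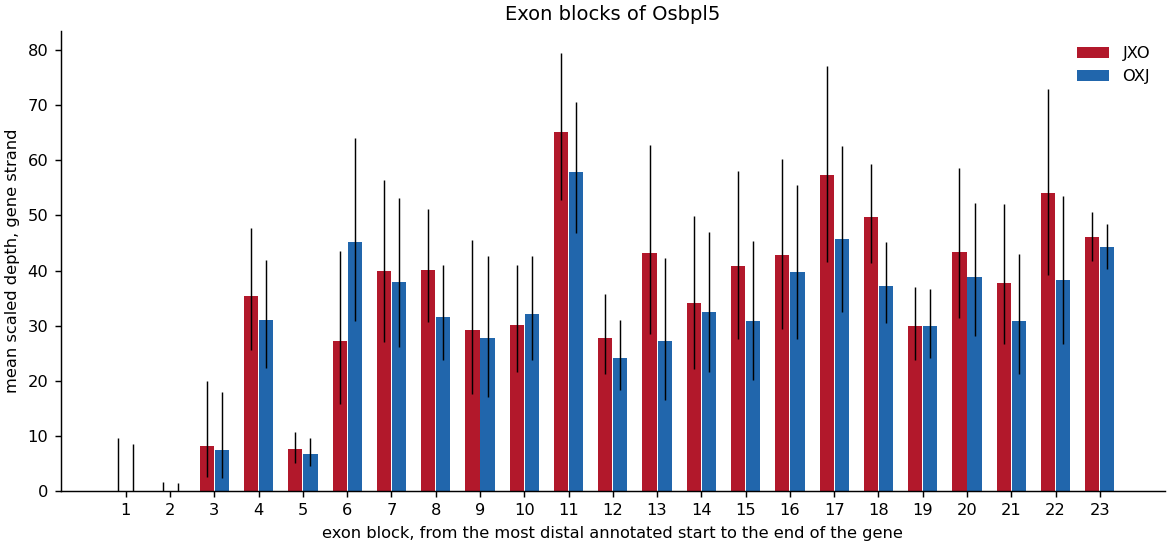
Mean scaled depth on the gene's strand of the 23 exon blocks of *Osbpl5*, numbered from the most distal annotated start, for JXO (red) and OXJ (blue), with 95% counting intervals as bars. Exon blocks 1 and 2 are at 0 in both libraries, block 3 is the first exon of the proximal start, and block 11 is the highest at 65.1 in JXO and 57.8 in OXJ.

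*Cd81*, on (+) from 150238644 to 150253839, had the highest mean depth of the list. Its blocks that consist of coding exons alone had 514 in JXO and 429 in OXJ (exon 3), 589 and 452 (exon 5), and 672 and 492 (exon 7), and the last exon had 652 and 433. Exon 4 (149 and 106) and exon 6 (272 and 251) are lower on average; they hold 98 of 405 and 207 of 562 coding bases. A 75-base exon of a non-coding transcript, exon 2, stood apart with 4.39 reads in JXO (level 3.82) and 1.28 in OXJ (level 0.988), which is 0.743% and 0.230% of exon 3 and close to the level of the introns. It is shown in capitals with 20 intron bases on either side (chr7:150244461-150244575, (+) strand of mm9).
Cd81 exon 2: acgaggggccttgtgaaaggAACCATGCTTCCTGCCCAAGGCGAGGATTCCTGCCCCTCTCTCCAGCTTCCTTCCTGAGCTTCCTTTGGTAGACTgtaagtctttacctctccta

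No own-strand read lay within 1 kb before the start of *Cd81* in either library. Of 11 listed tetraspanins and partners of CD81, *Ifitm1* had 9.83 in JXO and 8.04 in OXJ, and the tetraspanin *Tspan32* 0 and 0.0397.

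*Tssc4*, on (+) from 150255154 to 150256998, follows *Cd81* on the same strand, and signal did not stop between them. The 1314 bases from the end of *Cd81* to the start of *Tssc4* had 24.8 in JXO (21.8 to 28.0) and 19.96 in OXJ (17.4 to 22.7), without a base lacking reads (100% covered). That is 9.79 times the intron level of *Cd81* in JXO and 8.79 times in OXJ, and 29.0% and 28.0% of the exon level of *Tssc4*. The 85-base intron of *Tssc4* was at the same height, with 26.8 in JXO (15.7 to 42.6) and 18.1 in OXJ (9.73 to 30.8), or 31.4% and 25.4% relative to the exons, which is at percentiles 95.3 and 94.2 of the measured genes. Exon 1 had 58.5 in JXO and 41.8 in OXJ and exon 2, with 972 of its 1158 bases coding, 99.3 and 86.7. Past *Tssc4* the signal ended, with 12.8 reads in JXO and 7.04 in OXJ in the first 1 kb.

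*Nap1l4*, on (−) from 150699484 to 150734997, was covered over all its exon bases in both libraries. Its 16 exon blocks ran from 49.4 in JXO and 30.4 in OXJ, in the 51-base exon 1, to 404 and 252, in exon 6, with medians of 304 and 195. Every block had more signal in JXO at the deposited scaling, where 85.8% of the measured genes did. The log2 ratios of the blocks ran from 0.26 to 0.89, on either side of the median gene at 0.48. A 36-base exon present in 1 of its 3 transcripts, exon 15, had 79.4 in JXO and 66.4 in OXJ, which is 21.9% and 31.1% of the exon before it (362 and 214). The last exon had 163 and 119. Upstream of *Nap1l4* lies *Cars*, a tRNA synthetase gene on the same strand, whose exons had 76.3 in JXO and 44.8 in OXJ. The 8137 bases between them had 1.75 in JXO (1.44 to 2.11) and 1.23 in OXJ (0.980 to 1.51), covering 80.0% and 77.0% of the bases, at 38.8% and 38.7% of the level of the first intron of *Nap1l4*. In contrast, the 40.5 kb between *Phlda2* and *Cdkn1c* had 0.0241 and 0.00827 on (−). Of 5 other listed nucleosome assembly genes, *Nap1l2* had 3.89 in JXO and 1.78 in OXJ and *Nap1l5* 3.34 and 2.62.

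The exons of *Cd81*, *Tssc4*, *Cdkn1c*, *Phlda2*, *Nap1l4* and *Osbpl5* had higher levels in JXO than in OXJ, and those of *Slc22a18* a lower one: 6 of the 7 genes lay above 0, where 85.8% of the measured genes did. Ratios are log2 of JXO over OXJ with 0.1 added to both levels, at the deposited scaling. The largest was that of *Phlda2*, 1.52 (0.17 to 3.32 without the added 0.1), followed by *Nap1l4* at 0.61 (0.54 to 0.68), *Cdkn1c* at 0.61 (0.50 to 0.72), *Cd81* at 0.44 (0.39 to 0.49), *Tssc4* at 0.26 (0.14 to 0.38) and *Osbpl5* at 0.15 (0.040 to 0.26). *Slc22a18* had -0.11 (-2.48 to 2.07). A ratio of 1 or more was reached by 1 of the 7 genes, *Phlda2*, and by 7.28% of the measured genes, and a ratio of 0.58 or more by 3 of the 7 and by 38.7%. In the other direction no gene of the 7 was at -0.58 or beyond, where 3.25% of the measured genes were at that size and 1.08% at 1 or more.

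The median of the 7 ratios, 0.44, was close to that of all measured genes, 0.48, so that relative to the median gene 3 of the 7 were higher in JXO and 4 were lower. On that relative scale *Nap1l4* had 0.14 (0.068 to 0.20), *Cdkn1c* 0.13 (0.021 to 0.24) and *Cd81* -0.039 (-0.089 to 0.012). *Tssc4* had -0.22 (-0.34 to -0.095) and *Osbpl5* -0.32 (-0.44 to -0.21). *Phlda2* had 1.05, with an interval of -0.31 to 2.84 that reaches below 0, although its ratio was at percentile 99.1 of the measured genes. *Slc22a18* had -0.59 (-2.96 to 1.59). With totals made equal in place of the deposited scaling, the ratio of *Osbpl5* was -0.033. The listed maternally expressed genes elsewhere, 7 of 7 with a value, had a median ratio of 0.25, and the paternally expressed ones, 12 of 16 with a value, 0.69. *Kcnq1ot1* was among those without a value, although the tracks hold (−) strand signal within *Kcnq1*.

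**Figure D5:**
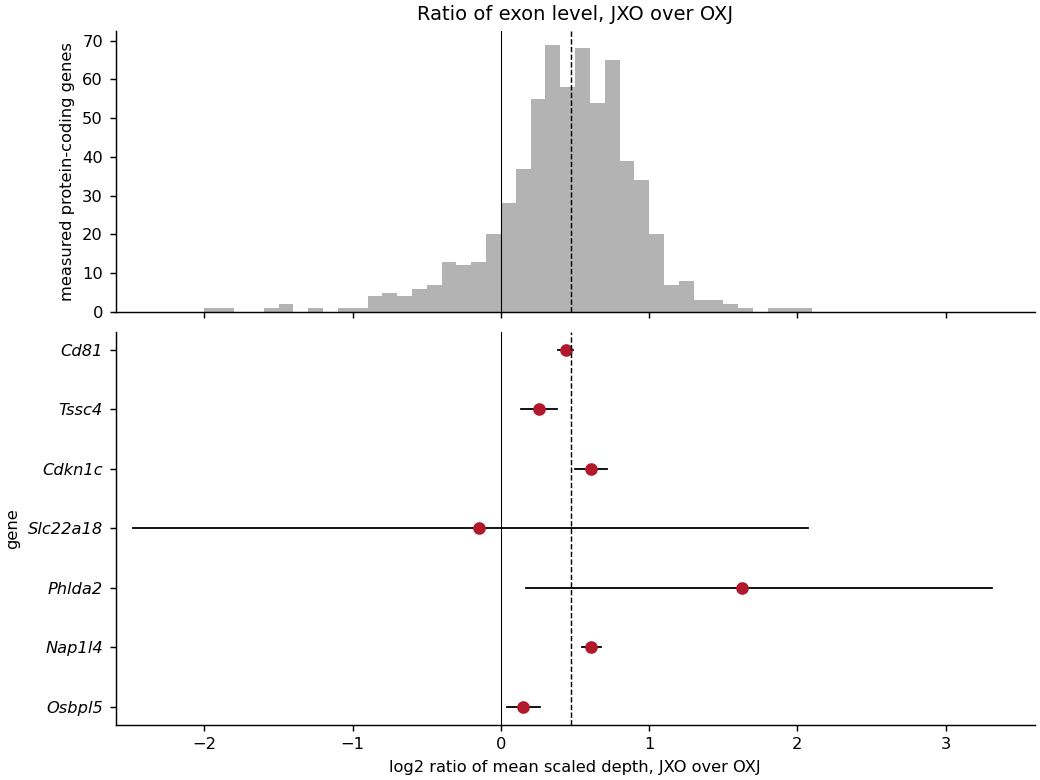
Upper panel, number of measured protein-coding genes by log2 ratio of exon level, JXO over OXJ, in steps of 0.1; lower panel, the ratios of the 7 genes without an added constant (points) with 95% counting intervals (bars), the solid line marking 0 and the dashed line the median gene at 0.48. *Cdkn1c* and *Nap1l4* lie to the right of the dashed line and *Tssc4* and *Osbpl5* to its left, and the bars of *Phlda2* and *Slc22a18* cross it.

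Between and around these genes lie 7 other annotated protein-coding entries, of which *Tnfrsf22* accounts for 2 overlapping ones. *Tnfrsf23*, a decoy receptor gene next to *Osbpl5* on the same strand, had 11.7 in JXO and 10.8 in OXJ, the longer entry of *Tnfrsf22* 5.90 and 5.13, and *Tnfrsf26* 0.210 and 0.373. The exons of *Kcnq1* had 0.00169 in JXO, less than 1 read, and no read in OXJ. The longest protein-coding transcript of each of the 7 genes had no match of at least 100 bases and 90% identity elsewhere in mm9. Other transcripts were not searched, and reads could be placed at up to 10 loci.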

How the data were processed

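Strand-specific RNA-seq of 1 JXO and 1 OXJ MEF line was used. Per the submitters' processing notes, CASAVA 1.9 and TopHat 1.2.0 were used with mm9. The authors deposited 4 tracks of log2 values, 1 per library and strand, in which depth per base had been set to a common 50000000 aligned reads before 1 was added. These values were turned back into depth, and whole multiples of the lowest value gave whole reads. The exon level of each of the 7 genes is given with its counting interval, whereas several other levels carry neither reads nor interval. The direction named forward held (−) strand RNA. Genes were those of GENCODE M1 (mm9); a level is the mean over the union of exons, or over introns without exons of other genes on that strand. Genes were compared with 646 of 939 protein-coding genes that lie inside covered stretches (gaps of at most 50 kb closed) and had at least 10 read pairs of 200 bases. No p-value is given, as each cross has 1 library. Fold calls and intervals were run on read pairs simulated as independent Poisson counts, the model behind the intervals. That run checks the code and cannot show how far the intervals hold for these data. The 7 genes, the gene lists and the rules were chosen with earlier results of these data known. The genes named are the 7, all other protein-coding genes of the interval, the 3 nearest to *Cdkn1c* and the members of the marker and gene family lists inside the stretches; the list of transporters related to *Slc22a18* is not reported here. Alternatives changed exons, introns, windows, measure, scaling and pseudocount. The longest protein-coding transcript of each of the 7 genes was searched in mm9 with BLAST 2.17.0. Python 3.11.15, numpy 2.4.6, pandas 2.3.3, scipy 1.17.1, pysam 0.24.0 and matplotlib 3.10.9 were used.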

Additional observations from a re-analysis of the deposited data

How the results depend on the processing

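Of 248 values of single genes under the alternatives, 166 stayed inside the counting interval of the value reported. Some alternatives left the bases of a gene unchanged and so could not move its value. *Phlda2*, the only gene with a log2 ratio of 1 or more, had ratios of 0.98 to 1.63 under the 8 alternatives run on it. Several of these could not change its sign. The longest transcript and the unfiltered background left the ratio at 1.52, and the scalings shift ratios by only -0.18 to -0.49. The ratios of *Cd81*, *Tssc4* and *Osbpl5* did change sign, to -0.039, -0.22 and -0.32 with the median gene set to 0. All 7 genes had more signal on their own strand under every alternative run. With covered bases counted in place of reads the own-strand share was near 50% for some genes. It was 50.7% in JXO and 51.7% in OXJ for *Nap1l4*, 52.1% and 51.2% for *Tssc4*, 53.0% and 53.6% for *Cdkn1c*, and higher for the others. Introns were below exons in 6 genes with median depth, where *Slc22a18* was at 0 in both, and in the 5 genes that have intron bases at least 200 bases from an exon. The median exon level of the 7 genes, 85.4 in JXO and 68.8 in OXJ, was 93.1 in JXO over exon bases free of other genes' exons, 95.8 and 75.8 with median depth, and 72.7 and 56.2 with means of log2 values. With totals made equal, 1 gene lay at a ratio of 0.58 or more in place of 3 (22.1% of the measured genes), and the median ratio was 0.25 (0.30 over the measured genes). With the median gene set to 0, 3 genes were higher in JXO in place of 6 (50% of the measured genes), 1 was at 0.58 or more (5.88%), and the median ratio was -0.039. With totals made equal without the 2 deepest 10 kb bins these values were 3 (49.5%), 1 (6.19%) and -0.054. With means of log2 values 1 gene was at 0.58 or more (32.4%) and the median ratio was 0.27 (0.39 over the measured genes). With a pseudocount of 1 the ratio of *Phlda2* was 0.98, and 0 genes were at 1 or more in place of 1 (3.41% of the measured genes). Other-strand reads before the start were found at 2 genes in JXO within 1 kb and at 4 within 2 kb. In OXJ they were found at 3 genes within 1 kb and at 4 within 2 kb. Apart from *Tssc4*, each of these genes had at most 4.65 such reads per library, so the counts of genes rest on few reads. The 2 kb window of *Tssc4* reaches into the last exon of *Cd81*. How many of the measured genes have such reads was not tested. No paired analysis was possible because each cross has 1 library, and for the same reason no library could be left out. Depth limits *Phlda2* and *Slc22a18*, whose levels rest on at most 31.2 reads per library.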
